A study of Oncorhynchus mykiss with 6 samples.

Results

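The sequences described here are listed under miRNA family names with a number of 1000 or higher in small RNA counts from rainbow trout (Oncorhynchus mykiss) liver. Members were the names of the form miR-number-x, -y or -z in that range, leaving out miR-2184, miR-2187 and miR-2188, and names with the same listed sequence counted as 1 member under the name with the highest total. This gave 177 distinct sequences under 180 names, of 1685 distinct sequences under 2730 names in all. The rule used names and sequences and no difference between the groups, but it was set with earlier results of these data known. The files do not define the endings x, y and z.

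The study compared livers of female fish held at 18 °C (control, 3 libraries) with livers of female fish whose water was warmed from 18 °C by 1 °C per 24 h to 24 °C (heat, 3 libraries). All fish were aged 150 days with a mean weight of 200 g and had 7 days of acclimation. No strain, transgene or other agent is named, and the question was which miRNAs change under heat stress. Livers of 12 fish are named, but the labels do not tie fish to libraries and do not give the number of tanks per group or how long the fish stayed at 24 °C. If libraries do not come from separate fish, p-values measure only the spread between these libraries, which may be technical.

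A miRNA is cut from the arms of a hairpin transcript by the enzymes Drosha and Dicer, and is carried by an Argonaute protein that uses the bases near its 5′ end, the seed, to find target mRNAs. Databases number families in the order of their submission, so high numbers mostly belong to families reported late, many of them from a single species or from deep sequencing alone. Some names of this kind were later recognised in human or mouse as pieces of tRNA, rRNA, snoRNA or other abundant RNAs. Mature tRNAs carry the bases CCA at their 3′ end, which are added by an enzyme after transcription, and short fragments that keep this end are a common class of small RNA.

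Total counts ran from 9267658 to 12778484 per library. The hepatocyte miRNA miR-122 was the dominant marker in every library, with a summed level of 148920 to 321617 CPM (counts scaled to library totals after TMM normalization), against 55.8 to 102 CPM for the 9 names of a retina and neural list, which was included because a protocol field of the labels speaks of retina. Control replicate 2 and heat replicate 1 stood apart: their TMM scaling factors were 1.25 and 1.24 against 0.870 to 0.916 in the other libraries, and their miR-122 levels were the 2 lowest, at 148920 and 187922 CPM. These CPM levels were themselves scaled by those factors, so the 2 differences are not independent. Leaving out both libraries is called the reduced set here.

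The label of possible RNA fragments was checked against the sequences. A first group, shown because its 3′ end sets it apart, ended in CCA. It held 19 of the 177 members (10.7%), against 0.601% of 333 distinct sequences of lower-numbered names, 0.683% of 1171 predicted miRNAs and 1.72% of all distinct sequences. Of the 44 members with a total of 60 or more, 13 (29.5%) ended in CCA, and 11 of these were 18 bases long, the shortest length in the files. Among the 200 lower-numbered sequences with such a total, 1 ended in CCA and 0 were 18 bases long. The 13 are printed 5′ to 3′ from the deposited files, in order of total count, with the last 3 bases in capitals.
miR-2478-y: atcccacttctgacaCCA
miR-4454-x: atccgggtcacggcaCCA
miR-9226-x: aggtccctgttcgggcgCCA
miR-7977-x: ttcccggccaatgcaCCA
miR-1260-x: atcccaccgctgtcaCCA
miR-7550-x: atccggctcgaaggaCCA
miR-9993-y: atctcggtaggacctCCA
miR-1386-x: ctcctggctagctcgCCA
miR-9995-y: atctcggtagaacctCCA
miR-4286-z: accccactcctggtaCCA
miR-6412-y: aaccatcctctgctaCCA
miR-3968-y: cgaatcccacttctgacaCCA
miR-10926-x: atctcagcagtgcctCCA

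Within this group, miR-3968-y contains the whole of miR-2478-y behind 3 more bases at its 5′ end. miR-9993-y and miR-9995-y have the same length and differ by the single substitution G11A, counted from 1 at the 5′ end with the base of miR-9993-y first. The human names miR-1260 and miR-4454 are often discussed as tRNA fragments. No tRNA or genome sequence was used here, so whether any of these sequences comes from a tRNA was not tested.

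Further members overlapped the group without ending in CCA. There were 7 of them, 3 with a total of 60 or more, each sharing a run of at least 15 bases with a CCA-ending member. They are shown with the shared run in capitals, because an x and a y name of 1 family here cover the same stretch. For miR-2779-x, miR-7550-x and miR-2779-y the shared run was 16 bases, and for miR-9226-x and miR-9226-y it was 17 bases.
miR-2779-x: tcaaaTCCGGCTCGAAGGACC
miR-7550-x: aTCCGGCTCGAAGGACCa
miR-2779-y: TCCGGCTCGAAGGACCaa
miR-9226-x: aggTCCCTGTTCGGGCGCCA
miR-9226-y: TCCCTGTTCGGGCGCCAaa

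Another group lay close to abundant miRNAs of lower number. It held 13 members, 12 of them within 2 substitutions of a more abundant lower-numbered sequence when both are read from base 1, and 1 that shared a run of at least 15 bases with one. Of these, 6 had a total of 60 or more. Only the sequence listed under each lower-numbered name was compared. A member may therefore be the product of another gene of the same family, which was not tested. They are printed above the sequence they resemble, with the bases that differ in capitals.
miR-10014-x: tggagtgtgacaatggtAA
miR-122-x: tggagtgtgacaatggtGTtt
miR-10174-y: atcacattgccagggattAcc
miR-23-y: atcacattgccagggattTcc
miR-3966-x: aagctgccagctgTagaactgt
miR-22-y: aagctgccagctgAagaactgt
miR-11977-y: tgTctcagttcagcaggaac
miR-24-y: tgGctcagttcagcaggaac
miR-6134-y: tgaggtagtaGgAtgtatagt
miR-98-x: tgaggtagtaCgTtgtatagtt

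The lower-numbered base first and counting from 1 at the 5′ end, the substitutions were G18A and T19A for miR-10014-x, T19A for miR-10174-y, A14T for miR-3966-x, G3T for miR-11977-y, and C11G and T13A for miR-6134-y. The sixth, miR-1352-x, differed from miR-122-x by G15T and T19A. The seed (bases 2 to 8) was that of the lower-numbered name in all of these except miR-11977-y, whose substitution falls within it. Outside this group, miR-5991-y and miR-3970-x also carried the let-7 seed.

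The remaining 138 members, 22 of them with a total of 60 or more, belonged to none of these groups, and 17 of the 22 were 21 to 23 bases long. These include families reported from fish or other vertebrates, whose x and y names should be the arms of 1 hairpin. Their sequences are shown with the seed in capitals.
miR-1388-x: tGGACTGTccaacctgagaat
miR-1388-y: aTCTCAGGttcgtcagcccatg
miR-7132-x: gACTTGGTcaaagctcctcagc
miR-7132-y: tGAGGCGTttagaacaagttca
miR-8159-x: tCAGTAACtggaatctgtccct
miR-3618-x: gATTTCCAataattgagacagt
miR-3618-y: tACATTAAtgaaaagaacaatg
miR-1788-y: cAGGCAGCtaaagcaagtctgt
miR-8160-x: aGAATAATgccagcagtcggcc

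The pairing of the x and y sequences was computed with RNAduplex, which finds the most stable duplex of a pair of RNAs. Among 68 lower-numbered families with both names at a total of 60 or more, the energy ran from -37.2 to -14.9 kcal/mol with a median of -21.9, and 0 pairs shared a run of 15 bases. Of the 9 high-numbered families with both an x and a y name at that level, 7 lay in this range, miR-1388 and miR-1338 being counted apart although their sequences are the same. Of the 9 pairs, 2 shared a run of at least 15 bases, miR-9226 and miR-2779, and are not read as 2 arms. miR-1388 was at -22.3 kcal/mol and miR-7132 at -18.3. miR-3618, at -1.80 kcal/mol, and miR-2779, at -8.60, were less stable than every lower-numbered pair. miR-9226, at -16.8 kcal/mol, lay within the range although its x and y sequences overlap each other.

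**Figure D1:**
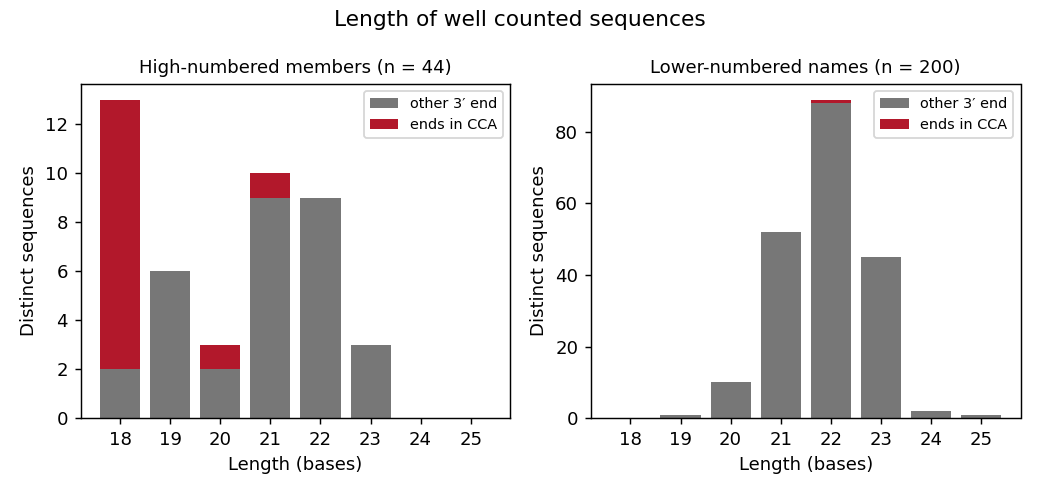
Length in bases (x axis) of the distinct sequences with a total count of 60 or more (y axis, number of sequences), for 44 high-numbered members on the left and 200 lower-numbered names on the right, with CCA-ending sequences in red. The members peak at 18 bases, where 11 of 13 end in CCA, while the lower-numbered names lie mostly at 21 to 23 bases.

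Names did not always separate sequences. miR-1338-x and miR-1338-y are listed with the same sequences as miR-1388-x and miR-1388-y, and miR-2779-z with that of miR-7550-x, yet their totals were 79.5%, 72.6% and 91.9% of the kept name's. A count under a name is therefore not simply the number of reads with the listed sequence. In the low range, miR-4334-y has the sequence of the lower-numbered miR-339-x. No member has the exact sequence of a predicted miRNA, although 12 share a run of at least 15 bases with one. For miR-8159-x, miR-8160-x, miR-8163-y, miR-10544-y, miR-2779-y and miR-9225-y that run is the whole member, which lies within a longer predicted sequence.

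A minority of members was well counted, as was the case for all sequences. A total of 60 or more over the 6 libraries was reached by 44 of 177 (24.9%), beside 29.4% of all 1685 distinct sequences. The share was 60.1% for lower-numbered and 21.3% for predicted sequences. These 44 held 99.3% of the members' 187623 counts and were detected in every library. The rest shared 1279 counts, 66 of them had a total of 2, which is the smallest count above 0 for any member, and 83 members were detected in 1 library alone. miR-1357-x lay just inside the limit, with a total of 67, and miR-2954-y just outside it, with 58. Their counts ran from 2 to 25 and from 0 to 29 per library, so the limit does not divide clearly different members.

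**Figure D2:**
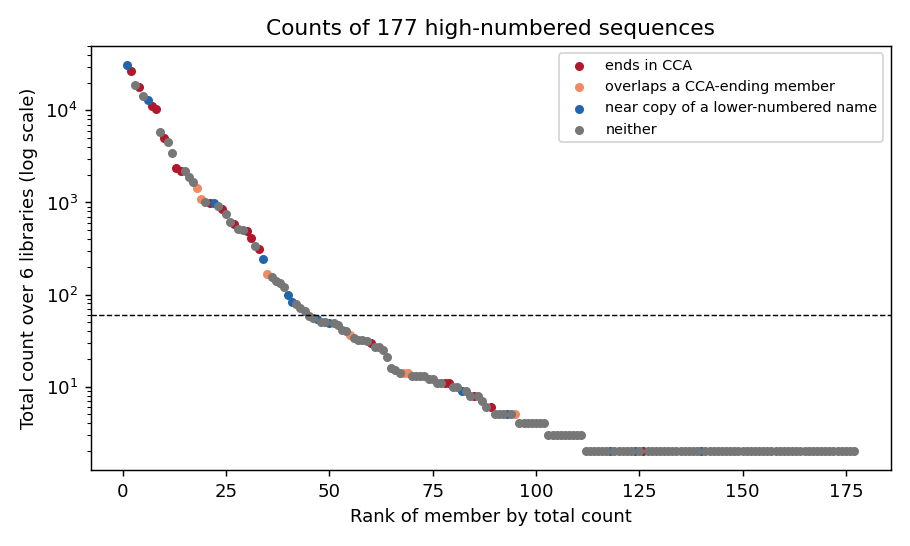
Total count over 6 libraries (y axis, log scale) of all 177 members by rank (x axis), coloured by sequence group, with the total of 60 as a dashed line. A few members hold most counts, and the tail reaches a total of 2.

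A small number of members dominated. The first, miR-10014-x, held 16.5% of all member counts, the first 5 held 58.3% and the first 12 held 86.8%. By group, CCA-ending members held 42.5% of member counts, near copies 24.3%, members of none of these groups 31.7% and the members that overlap the CCA group 1.48%. Even so, all 177 together took only 0.186% (heat replicate 2, exact binomial 95% interval 0.183% to 0.189%) to 0.378% (heat replicate 1, 0.375% to 0.381%) of a library. The most abundant member was miR-10014-x in control replicates 1 and 2 and heat replicate 1, and miR-2478-y in the other libraries.

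As a group the members were not separated by temperature. Their summed level was 3227, 2761 and 3117 CPM for the control libraries 1 to 3, against 3051, 2135 and 2309 CPM for the heat libraries 1 to 3, or 3035 ± 244 against 2498 ± 487 (SD, n = 3), a ratio of 0.823. Heat replicates 2 and 3 lay below every control, and heat replicate 1 lay among the controls. On the log2 scale the ratio was -0.28, where the spread between libraries of a group was 0.21 (SD). It was -0.25 with plain library totals, where heat replicate 1 was the highest of all libraries, and -0.51 without control replicate 2 and heat replicate 1, a setting added for this sum after the data were seen. In CPM these were the lowest control and the highest heat library for the sum, so leaving them out necessarily lowered the ratio. No test was made on the sum, because the members were chosen with earlier results of these data known.

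CCA-ending members summed to 1517, 895 and 1604 CPM in the controls and 1258, 967 and 1009 CPM in the heat libraries. Control replicate 2 was thus the lowest of all libraries for this group, and the highest for near copies and for the remaining members, at 773 and 1053 CPM. With plain library totals its CCA-ending sum was 1121 CPM, lowest among controls but above the 842 and 916 CPM of heat replicates 2 and 3. It was still the highest for near copies and for the remaining members, at 968 and 1317 CPM. The share of CCA-ending sequences in the member counts was 32.4% in control replicate 2 and 41.2% to 51.5% elsewhere. The miR-122 level was lowest in the same library. Its part in these differences was not tested.

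**Figure D3:**
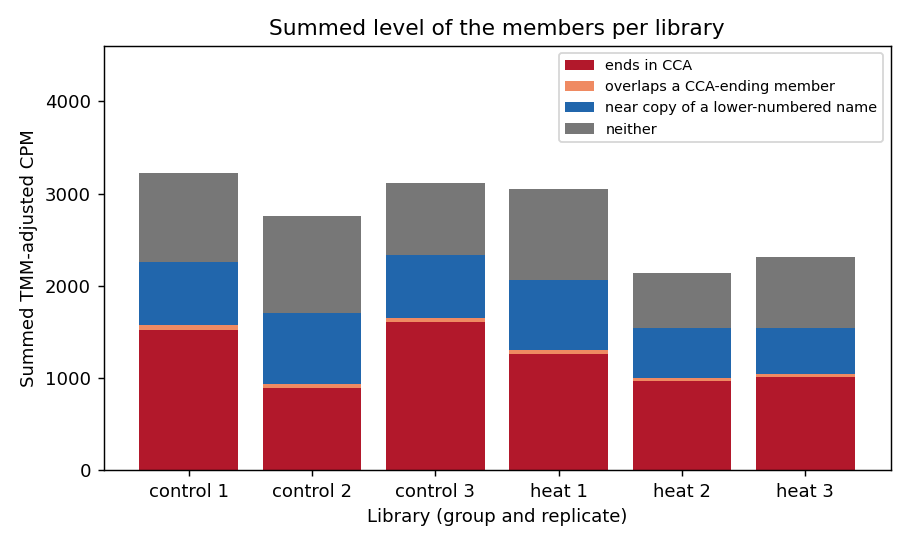
Summed TMM-adjusted CPM (y axis) of the members in each of the 6 libraries (x axis), stacked by sequence group. Heat replicates 2 and 3 are the lowest bars, at 2135 and 2309 CPM, and heat replicate 1, at 3051 CPM, stands among the controls.

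Member by member, no change passed the test. Of the 177, 46 passed the filter on low counts and were tested with edgeR, 43 of them with a total of 60 or more. None had an adjusted p under 0.05, where 0% of all 651 names tested were called, and 0 had an unadjusted p under 0.05, against 3.07% of all names (1.08% with a lower level in heat). DESeq2 also called 0 members, with 1 at an unadjusted p under 0.05, while calling 2 of the 651 names, both predicted. The members' lowest adjusted p with edgeR was 0.948. Fitted log2 fold changes were below 0 for 33 of the 46 (71.7%) and above 0 for 13, with a median of -0.31, where 52.8% of all names were below 0 and the median was -0.02. Lower-numbered names had 62.4% below 0 and a median of -0.10. Members are distinct sequences, while some of the 651 names share a sequence. With each sequence counted 1 time, 59.5% of 476 were below 0 with a median of -0.09, beside 71.7% and -0.32 for the members. In the main fit the members had a median standard error of 0.47. For 8 of the 46 the 95% interval excluded a 2-fold difference in either direction. For the other tested members a 2-fold difference in at least 1 direction was not excluded, and smaller differences may have gone undetected.

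The members' lean towards lower values changed in size with the libraries present. Without control replicate 2 and heat replicate 1, the remaining 2 libraries per group gave 12 of 48 members at an edgeR unadjusted p under 0.05, 11 of them lower in heat. Of all 612 names tested, 8.66% had such a p and 4.74% had it with a lower level in heat. In the members' summed level, the libraries left out were the lowest control and the highest heat library, at 2761 and 3051 CPM. Leaving them out thus favours lower values in heat, so these counts are not independent evidence of the lean. The lowest adjusted p was 0.514, and edgeR again called 0 of 612 names. The members' median log2 fold change was then -0.44, and 38 of 48 were below 0, against 52.6% of all names. Without heat replicate 1 alone, 7 of 51 members had an unadjusted p under 0.05, beside 49 of 713 names, and the median was -0.39. Without control replicate 2 alone there were 4 of 51, beside 43 of 728 names, with a median of -0.33. Leaving out heat replicate 3 gave 0 of 58, beside 26 of 815 names, with a median of -0.17. Leaving out control replicate 3 gave 2 of 51, beside 40 of 769 names, with a median of -0.18.

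**Figure D4:**
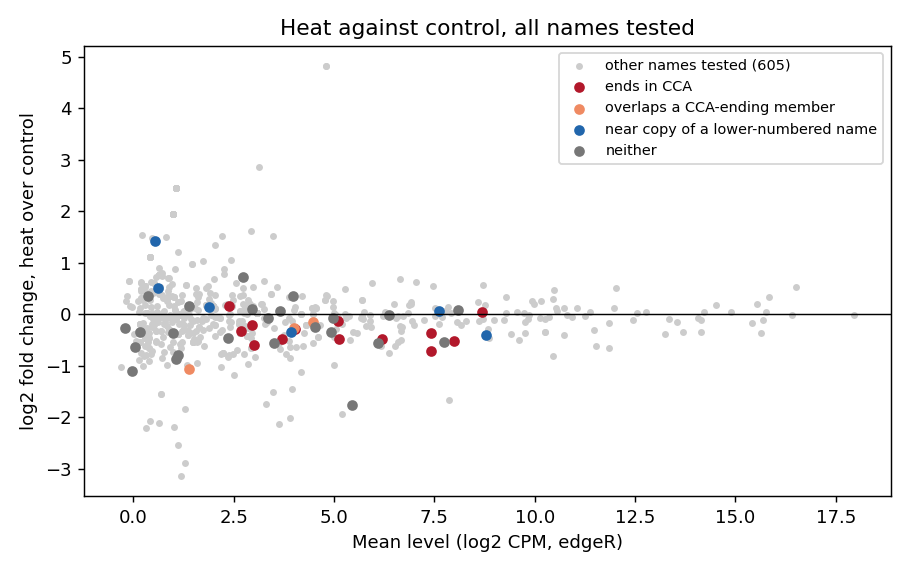
Fitted log2 fold change of heat over control (y axis) against mean level in log2 CPM (x axis) for the 651 names tested with edgeR, with the 46 tested members coloured by sequence group and the other names in pale grey. Of the members, 33 lie below 0, and 0 of them passed the test.

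Of the tested CCA-ending members, 11 of 13 had a fitted fold change below 0. This stands beside 52.8% of all names, or 59.5% with each sequence counted 1 time. The median of these members was -0.37, with a range from -0.72 to 0.17, and every one overlapped between groups. Their median was -0.18 without control replicate 3 and -0.57 without control replicate 2, where 3 of 13 had an edgeR unadjusted p under 0.05, beside 43 of 728 names. In the reduced set the median was -0.60, and 5 of 13 had such a p, beside 53 of 612 names. For the sum of this group too, the libraries left out were the lowest control and the highest heat library. miR-2478-y, the most abundant of them, stood at 458, 219 and 549 CPM in control, by library 1 to 3, against 468, 364 and 423 CPM in heat. The groups overlapped, with the lowest value in control replicate 2, and the log2 fold change came to 0.03 (interval at 95%: -0.78 to 0.84), or -0.28 without that library and 0.34 without control replicate 3.

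miR-4454-x was at 388, 282 and 235 CPM in control and at 369, 127 and 136 CPM in heat. Heat replicates 2 and 3 lay below every control and heat replicate 1 did not, for a log2 fold change of -0.52 ± 0.45 (SE, edgeR adjusted p = 0.995), or -1.28 ± 0.30 in the reduced set (adjusted p = 0.514). It was -1.18 without heat replicate 1, -0.25 without heat replicate 2, -0.26 without heat replicate 3 and -0.33 without control replicate 1. Heat replicates 2 and 3 were also below every control for miR-1260-x, at 98.1, 70.5 and 89.2 CPM in control and 81.0, 49.2 and 54.0 CPM in heat (-0.48 ± 0.32). The same was true of miR-7550-x, at 42.7, 32.2 and 45.8 CPM and 43.5, 20.5 and 21.9 CPM (-0.49 ± 0.40). These 2 had log2 fold changes of -0.89 and -1.10 in the reduced set. For miR-7550-x the value was -0.91 without heat replicate 1, -0.29 without heat replicate 2 and -0.31 without heat replicate 3.

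miR-7977-x followed another pattern, at 222, 70.0 and 345 CPM in control and 69.5, 164 and 153 CPM in heat. Its 2 lowest values were those of control replicate 2 and heat replicate 1, and its log2 fold change of -0.72 ± 0.57 moved with single libraries. It was -0.13 without control replicate 3, -0.40 without heat replicate 1 and -1.14 without control replicate 2. miR-9226-x measured 207, 138 and 230 CPM in control and 149, 151 and 145 CPM in heat (-0.37 ± 0.28). That value was -0.57 without control replicate 2, -0.18 without control replicate 3 and -0.60 in the reduced set. In CPM the heat libraries were close together, with control replicate 2 below them, but this depended on the TMM scaling. As a share of plain library totals, control replicate 2 (2048 counts of 11894384) lay above heat replicate 2 (1215 of 9267658). Control replicate 2 also lay above heat replicate 3 (1345 of 10245572), as did heat replicate 1 (2360 of 12778484). miR-2779-y, which overlaps miR-7550-x, had 28, 37 and 42 counts in control and 49, 6 and 7 in heat. Its log2 fold change of -1.05 ± 0.66 was among the 3 lowest and became -2.10 without heat replicate 1 and -2.32 in the reduced set.

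Near copies could be read against the miRNA they resemble. miR-10014-x measured 504, 581 and 415 CPM in control and 540, 311 and 288 CPM in heat, with heat replicate 1 among the controls (log2 fold change -0.40 ± 0.31). This was -0.72 without heat replicate 1, -0.26 without heat replicate 2, -0.21 without heat replicate 3 and -0.65 in the reduced set. Its count was 0.171%, 0.394% and 0.129% of that of miR-122-x in control, by library 1 to 3, against 0.289%, 0.105% and 0.105% in heat. The share was thus not constant, and was highest in control replicate 2 and heat replicate 1, the pair with the lowest miR-122-x level in CPM. For miR-122-x itself, the hepatocyte miRNA, the log2 fold change was -0.02 ± 0.34.

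miR-3966-x gave the steadiest share, between 0.0279% and 0.0311% of the count of miR-22-y, a widely expressed miRNA, in all 6 libraries. It stood at 17.5, 16.2 and 16.7 CPM in control and 10.2, 14.01 and 15.3 CPM in heat, wholly lower in heat, with a log2 fold change of -0.35 ± 0.35 (edgeR adjusted p = 0.995), or -0.18 without heat replicate 1. The levels of miR-22-y were likewise wholly lower in heat, at 56125, 56977 and 59835 CPM against 35327, 48589 and 50576 CPM, with a log2 fold change of -0.36 ± 0.23. A test of the difference between the 2 fold changes was not made.

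miR-10174-y was at 163, 166 and 249.7 CPM in control and 205, 213 and 186 CPM in heat, with a log2 fold change of 0.06 ± 0.28 beside 0.05 ± 0.35 for miR-23-y, a miRNA of the miR-23/27/24 cluster. It was 0.34 without control replicate 3 and -0.086 without control replicate 1. Its share of the miR-23-y count ran from 5.83% to 11.0%. miR-11977-y, 1 base from miR-24-y of the same cluster, had 2, 15 and 8 counts in control and 18, 19 and 21 in heat, or 0.225, 1.01 and 0.808 CPM against 1.14, 2.36 and 2.26 CPM. Every heat library lay above every control, and the log2 fold change of 1.43 ± 0.63 was the highest among tested members (95% interval -0.02 to 2.88, edgeR adjusted p = 0.948). In the reduced set the value was 2.08 ± 0.75 (edgeR adjusted p = 0.550). For miR-24-y the log2 fold change was 0.13 ± 0.28. The miR-11977-y count was 0.0206%, 0.0734% and 0.0463% of the miR-24-y count in control, and 0.0952%, 0.127% and 0.145% in heat. That difference in share was not tested and rests on few counts. miR-1352-x, the other relative of miR-122-x, had 3 to 35 counts per library and a log2 fold change of 0.51 ± 0.66, which ran from 0.085 without control replicate 1 to 1.31 without control replicate 2 and was 0.96 in the reduced set.

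**Figure D5:**
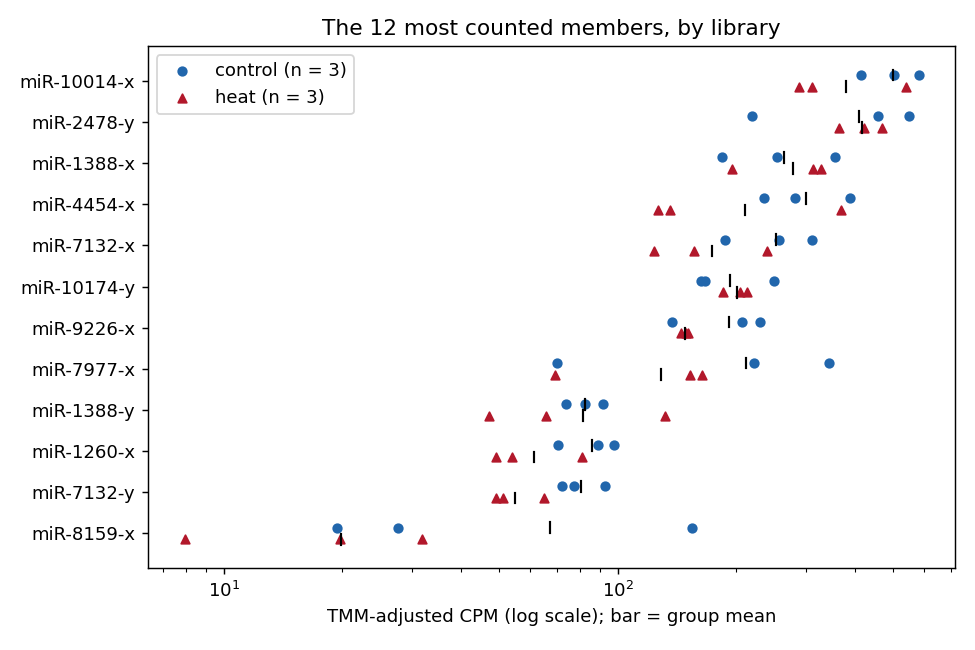
TMM-adjusted CPM (x axis, log scale) of the 12 members with the highest totals (y axis), with 3 control libraries as blue circles, 3 heat libraries as red triangles and bars at the group means. On this scale, only miR-7132-y of these 12 has heat libraries wholly below the controls.

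Among families reported from fish or other vertebrates, a list of 19 numbers matched 21 members, 11 with a total of 60 or more, and 12 were tested. None was called, 9 had a fitted fold change below 0 and 3 above, with a median of -0.52 beside -0.02 for all names tested. With each sequence counted 1 time, the median over all was -0.09. One of the 11, miR-7550-x, is a CCA-ending sequence here. A list of 13 numbers known from other species as fragments of other RNAs matched only miR-4454-x and miR-1260-x, both described above.

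miR-1388-x, from a family known in fish, was the most abundant member of this kind, at 255, 357 and 184 CPM in control and 314, 195 and 329 CPM in heat. Its groups overlapped fully, with a fitted log2 difference of 0.07 (interval at 95%: -0.70 to 0.85). It was 0.34 without control replicate 2 and -0.087 without control replicate 3. miR-1388-y, the other arm, measured 91.7, 82.7 and 74.1 CPM in control and 132, 47.1 and 65.7 CPM in heat (-0.02 ± 0.41), which is 0.06 with plain library totals, -0.54 without heat replicate 1 and 0.27 without heat replicate 2. The ratio of x to y counts ran from 2.48 to 4.31 in control and from 2.38 to 5.01 in heat.

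Both arms of miR-7132, a family on the vertebrate list, were lower in heat by fitted fold. miR-7132-y stood at 92.6, 77.4 and 72.3 CPM in control and 64.9, 51.2 and 49.0 CPM in heat, and all heat libraries lay below all controls. This separation depended on the TMM scaling. As a share of plain library totals, heat replicate 1 (1027 counts of 12778484) lay above control replicate 3 (716 of 11117223). The log2 fold change of miR-7132-y was -0.55 ± 0.29 (95% interval -1.22 to 0.12, edgeR adjusted p = 0.995) and stayed between -0.67 and -0.44 when 1 library was left out. For miR-7132-x the values were 312, 188 and 257 CPM in control and 240, 123.7 and 156 CPM in heat, which overlap, with a log2 fold change of -0.54 ± 0.34. It was -0.83 without heat replicate 1, -0.33 without heat replicate 2 and -1.06 ± 0.23 in the reduced set, where its edgeR unadjusted p of 0.0066 was the lowest of the members (adjusted p = 0.514).

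In TMM-adjusted CPM, heat libraries lay wholly below the controls for 3 of 46 tested members (6.52%, against 3.07% of all names tested) and wholly above them for 1 (2.17%, against 5.22%). The higher one was miR-11977-y, which passed the filter through its heat libraries. The third of the lower ones, beside miR-7132-y and miR-3966-x, was miR-10545-y, at 5.41, 7.05 and 4.65 CPM in control and 4.23, 3.97 and 4.19 CPM in heat. Its log2 fold change was -0.47 ± 0.38, or -0.29 without control replicate 2. For miR-10545-y too the separation depended on the TMM scaling. As a share of plain library totals, heat replicate 1 (67 counts of 12778484) lay above control replicate 3 (46 of 11117223).

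miR-8159-x, on the same list, had the lowest log2 fold change of the tested members, at -1.76 ± 0.86. The value rested on control replicate 2: the counts were 246, 2303 and 192 in control and 505, 159 and 74 in heat, or 27.7, 154.7 and 19.4 CPM against 31.9, 19.7 and 7.95 CPM. Without that library the log2 fold change was -0.26, and in the reduced set it was -0.79. The summed level of 5 names of pancreas miRNAs (miR-216, miR-217 and miR-375, all 3 detected) was also highest there, at 346 CPM, against 150 to 291 CPM in the other libraries, as was that of 11 names of leukocyte miRNAs (32592 against 16767 to 18605 CPM). The erythrocyte list (miR-144, miR-451 and miR-486) was also highest in control replicate 2, at 6704 against 3894 to 5844 CPM. So were the muscle list (miR-1, miR-133 and miR-206), at 29.96 against 14.6 to 27.6 CPM, and the retina and neural list, at 102 against 55.8 to 92.9 CPM. The higher level there was thus not particular to pancreas and leukocyte miRNAs. The part of any of these in the value of miR-8159-x was not tested.

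miR-1788-y had 14, 131 and 41 counts in control and 237, 37 and 42 in heat. Its log2 fold change of 0.73 ± 0.72, among the 3 highest, rested on heat replicate 1 and was -0.08 without it. It was 1.46 without control replicate 2 and 0.29 without control replicate 1. miR-3618-x was at 33.0, 37.3 and 26.1 CPM in control and 42.8, 21.6 and 26.6 CPM in heat (-0.08 ± 0.38, or 0.13 without heat replicate 2 and -0.39 without heat replicate 1). miR-3618-y ranged from 7.98 to 15.4 CPM in control and from 6.23 to 24.5 CPM in heat, with its highest value in heat replicate 1 (0.07 ± 0.60, or -0.83 without that library).

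The less counted members of the list were miR-8160-x, at -0.57 ± 0.49, and miR-7147-x, at -0.87 ± 0.55, both overlapping between groups. For miR-8160-x the value ran from -0.29 without control replicate 1 to -1.02 without heat replicate 1, and was -1.28 in the reduced set. For miR-7147-x it was -0.45 without control replicate 2 and -0.58 in the reduced set. Of the members under a total of 60, 3 were tested, and miR-10357-x among them had a log2 fold change of -1.10 ± 1.16 from 0 to 19 counts per library, which ran from -2.11 without heat replicate 3 to -0.45 without control replicate 3. miR-1357-x, tested at the limit, was at -0.34 ± 0.76, or -1.32 without heat replicate 1.

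The number of members detected was 83, 99 and 82 by control library and 108, 83 and 69 by heat library. It was highest in control replicate 2 and heat replicate 1, the 2 libraries with the highest totals, and did not separate the groups. Thinned to the smallest library total, the numbers were 83, 97 and 82 against 106, 83 and 69. Counting only members with at least 5 reads, they were 58, 54 and 55 against 73, 53 and 51. Control replicate 2 was then the lowest of the controls, and heat replicate 1 was still the highest of all. Members detected only in control libraries numbered 47 and only in heat libraries 40, and a count of 0 allows up to 3 counts in a library. Detection in 1 library alone, which by itself places a member in 1 of these counts, applied to 83 members. No share over all names stands beside them, so they are not read as members particular to a group.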

How the data were processed

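Each library has 1 deposited text file. Per the file headers it gives, for every name, the listed sequence with its length, the library's own count and TPM, and the total over 6 libraries. The whole-number count was used as deposited by the authors. The TPM column, scaled by the authors and slightly above its nominal sum, was treated as a score and not used. The sources used here do not name the aligner, the miRNA database or the small RNA library preparation. No genome was used.

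The 6 libraries (3 control, 3 heat) were grouped by their titles. Counts of all 2730 names were tested with the robust quasi-likelihood test of edgeR 4.0.16 under R 4.3.3 (a minimum count of 10 in filterByExpr, TMM, Benjamini-Hochberg adjustment over 651 names, threshold 0.05), and checked with DESeq2 1.42.0. Standard errors come from the log2 fold change and F. CPM uses TMM-adjusted library totals. Intervals for shares are exact binomial and show counting error alone, because PCR copies of 1 molecule cannot be told apart. The fit was tested on simulated data. Overlaps, substitutions and duplexes (ViennaRNA 2.7.2) were computed from the listed sequences. Motifs were read on the listed strand.

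Members and lists were chosen with earlier results of these data known, and the sequence groups after the files were seen. Members named are the 12 with the highest totals, those with separated groups or an unadjusted p under 0.05, the 3 highest and 3 lowest fold changes, list members with a total of 60 or more, and those nearest the limit. Others are named for their sequence. Equal replicate numbers did not pair libraries.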

Additional observations from a re-analysis of the deposited data

How the results depend on the processing

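Each alternative changed 1 choice, except that the DESeq2 Wald test also brought its own size factors and that control replicate 2 and heat replicate 1 were left out as a pair. The count of 0 members called by edgeR was also 0 with DESeq2 size factors, plain library totals, the DESeq2 Wald test, no filter, a minimum count of 20, each sequence counted 1 time, known names alone, no robust estimation, the replicate block, each library left out and without both control replicate 2 and heat replicate 1. Members at an unadjusted p under 0.05 numbered 0 in the main setting, 1 with the DESeq2 Wald test (38 of 651 names), 2 without a filter (126 of 2730 names, where 23 names, all predicted, were called), 1 with the replicate block (33 of 651 names), 12 without that pair (53 of 612 names), and 0 to 7 with 1 library left out (26 to 49 names). The members' median log2 fold change ran from -0.39 to -0.17 with 1 library left out. The log2 ratio of the summed level was -0.51 without both libraries, which were the lowest control and the highest heat library for this sum. The cause was not tested. The ratio ran from -0.45 to -0.18 with 1 library left out.

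Deviations of libraries with the same number correlated at 0.081, -0.193 and 0.151, and for 2 of 6 the best match was the library of the same number, so the numbers were not taken to pair libraries. With the replicate block the median was -0.30. Of 25 named and tested members, 8 changed sign in at least 1 of 16 settings, in 23 of 395 values, 16 of them with 1 library left out. With 1 library left out, the log2 fold change ran from -0.28 to 0.34 for miR-2478-y, from -0.087 to 0.34 for miR-1388-x, from -0.086 to 0.34 for miR-10174-y, from -0.54 to 0.27 for miR-1388-y, from -0.39 to 0.13 for miR-3618-x, from -0.83 to 0.41 for miR-3618-y, from -0.077 to 1.46 for miR-1788-y and from -1.32 to 0.091 for miR-1357-x. Without both libraries it was -0.39 for miR-2478-y, -0.084 for miR-10174-y and -0.84 for miR-3618-y. It was 0.060 for miR-1388-y with plain library totals. With known names alone it was 0.075 for miR-1388-y and 0.025 for miR-3618-x. With the replicate block it was -0.18 for miR-3618-y. The cause of these sign changes was not tested. Depth limits members with few counts: 131 of 177 did not pass the filter.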
